A study of Arabidopsis thaliana with 12 samples.

Results

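The 49 genes described here were higher after 1 day of auxin in mature Arabidopsis hypocotyls and changed little in young ones. A gene was taken when the mean log2 value of mature hypocotyls with auxin exceeded that of untreated mature hypocotyls by at least 1.5, while the same difference in young hypocotyls lay between −0.5 and 0.5. These 2 differences chose the members, so they are given below as a description, and nothing is read from the calls on them. Only probe sets annotated with exactly 1 gene were eligible, 13513 of the 22746 non-control probe sets on the array. Symbols beginning with AUR, EXP, CYC, UGT, CYP7, CYP8 or MYB were set aside, which removed AUR2, AUR3 and EXPA15 and left 49 of 52 genes.

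Total RNA came from hypocotyls, the seedling stems below the cotyledons, of ecotype Col-0, and was hybridised to 12 one-colour Affymetrix arrays. The 4 groups of 3 arrays each were mature hypocotyls with auxin, mature hypocotyls without it, young hypocotyls with auxin and young hypocotyls without it. Mature means 35 days old and young 7 days old, all on full-strength MS medium, and the study asks how callus formation changes as hypocotyls age. The labels call the arrays of a group biological replicates, and they name neither the auxin nor its dose. All values are log2 values relative to the median of the probe set over the 12 arrays, so that 0 is no absolute level, and the levels of different genes cannot be compared.

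Auxin is a plant hormone that is perceived in the nucleus, where it triggers the destruction of Aux/IAA repressors and so frees ARF transcription factors to act. In hypocotyls and roots it can return pericycle cells, which lie around the vascular tissue, to division, and this is the usual origin of lateral roots and of auxin-induced callus. A dividing plant cell replicates its DNA, condenses and separates its chromosomes, and then builds a new wall from the middle outwards on a microtubule array called the phragmoplast. Of the 49 members, 7 carry a gene name in the annotation used here. Several of these act in that sequence: KINESIN-12B and FU in the phragmoplast, Haspin and 3xHMG-box1 on mitotic chromosomes, and TOP3A in DNA repair. GH9B8 encodes a glycosyl hydrolase and RALFL24 a signalling peptide. The other 42 are known here by locus only, and no role is given to them.

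The mature response of the members ran from 1.51 to 4.07 on the log2 scale, with a median of 1.80 (median of all probe sets 0.06). The young response ran from −0.48 to 0.50, with a median of 0.26 (median of all probe sets 0.02). In every member each of the 3 mature auxin arrays lay above each of the 3 untreated ones, as the choice of members largely sets; the same held for 34.9% of all probe sets. The young limit is one of size and not of a test. With limma, a linear model with a moderated estimate of the spread, at an adjusted p under 0.05, 15 of the 49 were called higher in young hypocotyls with auxin (32.7% of all probe sets) and 3 lower (26.4% of all). In 22 members every young auxin array lay above every young untreated one (35.6% of all probe sets), and in 2 below (28.9%). These counts are given as a description, since the rule used this contrast. Among the members called higher, TOP3A had the largest young difference (0.50 ± 0.11, SE of the contrast throughout). The 3 called lower were AT1G12080 (−0.46 ± 0.18), AT5G48460 (−0.48 ± 0.12) and RALFL24 (−0.39 ± 0.16). In bulk tissue, more RNA per cell and more cells of a type cannot be told apart.

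**Figure D1:**
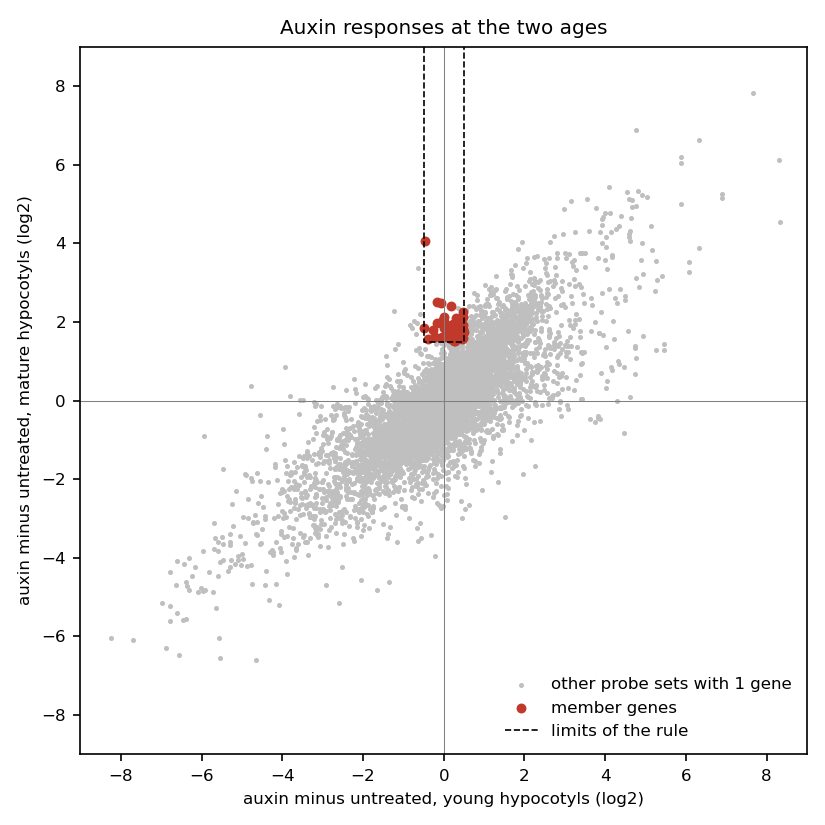
Each point is a probe set with 1 gene; the x axis is the auxin response of young and the y axis that of mature hypocotyls, both auxin minus untreated on the log2 scale, and the dashed lines mark the limits that chose the 49 members (red). Of 798 eligible probe sets with a mature response of at least 1.5, 741 had a young response above 0.5 and lie to the right of the limits.

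Most genes with a mature response of this size had a clear young response too. Of the 798 eligible probe sets at or above 1.5 in mature hypocotyls, 741 exceeded 0.5 in young ones, 8 lay below −0.5 and the 49 members lay between. The limits have no natural gap. Just inside the mature limit were Haspin (1.56), 3xHMG-box1 (1.53) and AT5G49100 (1.51). Just outside were a second probe set of FU (1.48), AT5G43520 (1.48) and AT1G26420 (1.47). At the young limit, TOP3A (0.50), AT5G58840 (0.49) and AT1G72540 (0.49) lay inside, and AT1G12020 (0.51), AT5G04160 (0.52) and AT5G58750 (0.53) outside.

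Some arrays stood apart in ways that touch these values. The bioC spike-in, a bacterial control transcript, lay between −1.57 and −1.52 on arrays 1 and 2 of both untreated groups, at 0.47 and 0.73 on array 3 of the mature and the young untreated group, and between −0.13 and 0.20 on the auxin arrays. Without those 4 arrays the rule chose 59 genes, 41 of them among the 49, and what the spike-in difference contributes was not tested. The third mature auxin array was the highest of its group in 37 of the 49 members (75.5%), against 34.8% of all probe sets and 54.8% of the 1463 probe sets with a mature response of at least 1.5. In the members that array exceeded the mean of the other two by a median of 0.38, against 0.10 in those 1463 probe sets and −0.02 in all. Without it, the rule chose 42 genes, 36 of them among the 49. The median SD over the mature auxin arrays was 0.26 for the members and 0.11 for all probe sets. In untreated mature hypocotyls it was 0.13 for the members and 0.11 for all probe sets.

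Markers of several tissues and cell types, some of them present in hypocotyls, were sought by symbol among the probe sets annotated with 1 gene. Measured here means found in that way. Few were found, so the label of the tissue could not be checked in depth. Of the 6 leaf mesophyll markers listed, 2 were measured, PSAN and LHCB4.2. Their mean level ranged from −3.35 to −2.87 with auxin and from 2.62 to 3.47 without it in mature hypocotyls, and from −3.31 to −2.94 with auxin and 4.70 to 4.96 without it in young ones. Both were called lower in mature hypocotyls averaged over the 2 treatments. Of 4 pericycle and lateral root founder markers, 3 were measured (PUCHI, LBD29 and LBD16), and their mean ranged from 2.72 to 3.04 with auxin and −2.65 to −2.43 without it in mature hypocotyls, and from 2.41 to 2.69 and −2.84 to −2.62 in young ones. FACT, the 1 measured of 5 endodermis and periderm markers, lay between 1.80 and 2.15 with auxin and 2.38 and 2.49 without it in mature hypocotyls, and between −2.09 and −1.80 with auxin and −2.29 and −2.01 without it in young ones. The 1 measured of 5 shoot apex markers, CLV3, lay between 0.41 and 0.71 in untreated mature hypocotyls and between −0.43 and 0.07 on all other arrays. The mean of 3 of 4 guard cell markers stayed between −0.22 and 0.34. No listed marker of root tip, xylem, phloem or cambium was found in this annotation. It lists no gene for 8730 of the 22746 probe sets, so these markers may still be on the array. The part of these tissues in the members' values was not tested.

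The members named for cell division shared a shape: lowest in untreated mature hypocotyls, highest in mature hypocotyls with auxin, and in between, close together, in both young groups. The rule sets much of this shape, since it asks for a wide gap between the mature groups and a narrow one between the young. Nor is it particular to them: 24 of the 49 members had mature arrays all below young without auxin and all above with it (4.45% of all probe sets). KINESIN-12B, a motor that sits where phragmoplast microtubules meet at the growing cell plate, had 0.90, 0.89 and 1.55 in mature hypocotyls with auxin, against −0.94, −1.05 and −0.87 in untreated ones. Its young values were 0.07, 0.11 and 0.48 with auxin, against −0.10, −0.13 and −0.07 without. All 6 young values thus lay between the mature auxin and the mature untreated arrays. The mature response was 4.19-fold (2.07 ± 0.16) and the young one 0.32 ± 0.16.

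FU, the FUSED protein kinase that is needed for the phragmoplast to expand, followed the same order. It had 0.89, 0.77 and 1.15 in mature hypocotyls with auxin, against −0.90, −0.69 and −0.87 in untreated ones. In young hypocotyls it had 0.08, 0.02 and 0.29 with auxin, against −0.23, −0.10 and −0.02 without. FU was the only member with more than 1 probe set, and the rule used 1 of them. The other gave 0.90, 0.97 and 1.11 in mature hypocotyls with auxin, against −0.40, −0.69 and −0.37 in untreated ones, and 0.27, 0.32 and 0.05 with auxin, against −0.30, −0.05 and −0.08 without it, in young ones. The mature response was 1.76 ± 0.11 by the first and 1.48 ± 0.11 by the second probe set, and the second falls just short of the limit.

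Haspin, a kinase that phosphorylates a threonine of histone H3 in mitosis, had 1.05, 0.90 and 1.21 in mature hypocotyls with auxin, against −0.72, −0.42 and −0.35 in untreated ones. Its young arrays overlapped, with 0.15, −0.06 and 0.31 with auxin, against 0.01, −0.01 and −0.15 without. 3xHMG-box1, a DNA-binding protein that associates with condensed chromosomes in mitosis, had 0.54, 0.61 and 1.33 in mature hypocotyls with auxin, against −0.62, −0.87 and −0.61 in untreated ones. Here the third mature auxin array was far above the other two, which still exceeded every untreated array. The young values of 3xHMG-box1 were −0.03, 0.21 and 0.18 with auxin, against −0.42, −0.07 and 0.03 without, and they overlapped.

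TOP3A, a topoisomerase that resolves recombination intermediates, also had its lowest values in untreated mature hypocotyls. It had 0.32, 0.41 and 0.63 in mature hypocotyls with auxin, against −1.30, −1.44 and −1.16 in untreated ones, and 0.09, 0.27 and 0.32 with auxin, against −0.40, −0.33 and −0.09 without it, in young ones. The 2 young groups did not overlap, nor did they in KINESIN-12B and FU, and the third young auxin array lay close to the first mature auxin array.

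GH9B8 belongs to the glycosyl hydrolase family that includes the endoglucanase KORRIGAN, which acts in cellulose synthesis. It had 1.59, 1.84 and 2.08 in mature hypocotyls with auxin, against −0.38, −0.42 and −0.90 in untreated ones, a 5.30-fold difference (2.41 ± 0.33). Among young hypocotyls the auxin arrays were nearly equal, at 0.00, 0.02 and 0.00, while the untreated arrays were scattered, at −0.81, 0.93 and −0.61. Its small young response (0.17 ± 0.33) has the largest SE among the members, and the second untreated array lay above all 5 other young arrays.

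RALFL24 encodes a peptide of the RALF family, small secreted proteins that bind receptor kinases of the FERONIA type at the cell surface. It had 0.00, −0.27 and −0.01 in mature hypocotyls with auxin, against −1.85, −1.46 and −1.66 in untreated ones, a 2.96-fold difference (1.56 ± 0.16). In young hypocotyls it had 0.22, 0.07 and 0.00 with auxin, against 0.44, 0.87 and 0.16 without. Mature hypocotyls with auxin overlapped young ones with auxin, and untreated mature hypocotyls lay far below all other arrays.

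**Figure D2:**
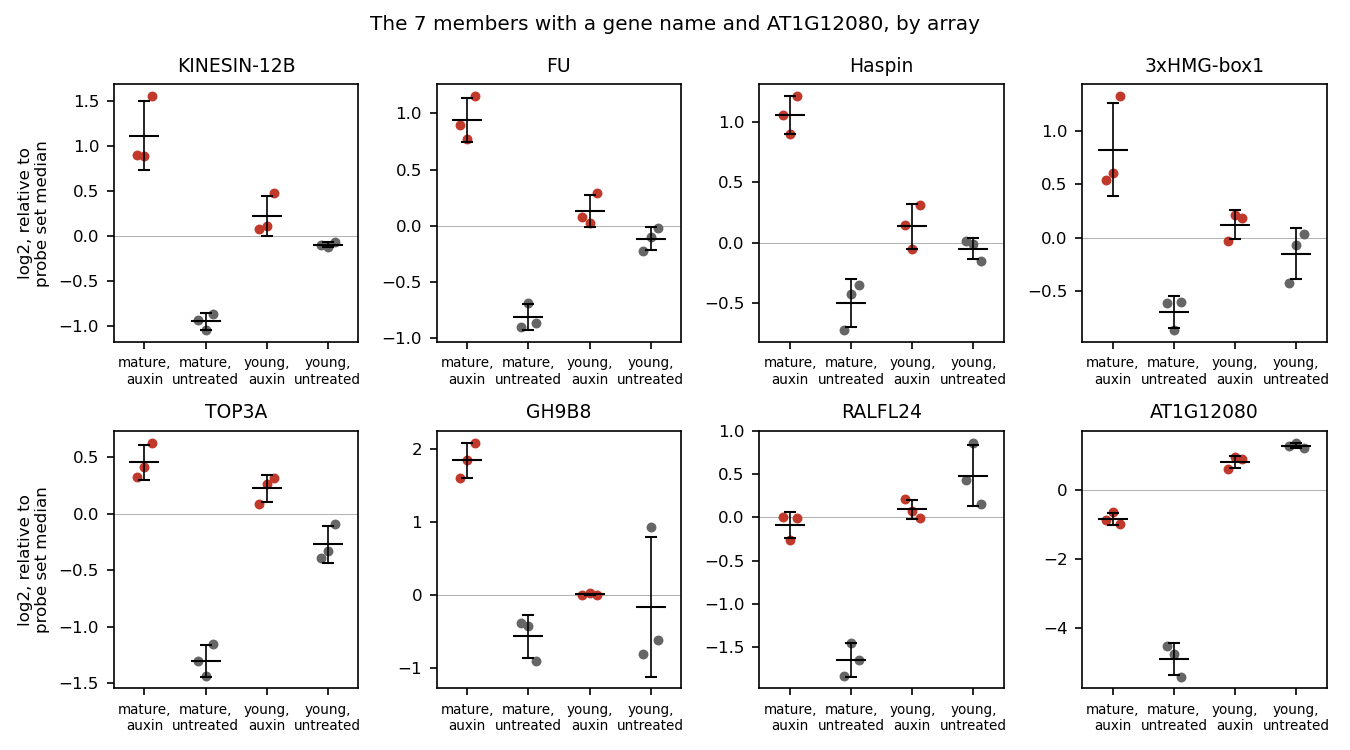
Log2 value relative to the probe set median (y axis) on the 3 arrays of each group (points; red with auxin, grey without), with the mean and SD (bars), for the 7 members with a gene name and AT1G12080. In KINESIN-12B, FU, Haspin and 3xHMG-box1 both young groups lie between the mature groups, while AT1G12080 is lower in both mature groups than in both young ones.

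Among members known by locus, AT1G12080 had the largest mature response. It had −0.87, −0.63 and −0.96 in mature hypocotyls with auxin, against −4.51, −4.75 and −5.40 in untreated ones, a 16.8-fold difference (4.07 ± 0.18). Its young values were 0.63, 0.96 and 0.90 with auxin, against 1.27, 1.38 and 1.22 without. The age difference, mature minus young, was −1.65 ± 0.18 with auxin and −6.18 ± 0.18 without it, the widest gap of the 49 in untreated hypocotyls.

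AT3G43960 had 0.10, −0.19 and 0.09 in mature hypocotyls with auxin, against −2.63, −2.39 and −2.53 in untreated ones (2.51 ± 0.12), and its 6 young values lay between −0.10 and 0.36. AT4G14380 had −0.01, −0.14 and −0.04 in mature hypocotyls with auxin, against −2.41, −2.69 and −2.52 in untreated ones (2.48 ± 0.09), and its young values lay between 0.01 and 0.22. With auxin the age difference was −0.06 ± 0.12 for AT3G43960 and −0.12 ± 0.09 for AT4G14380, so that both came close to the young level. AT5G51560 had 0.18, 0.14 and 0.27 in mature hypocotyls with auxin, against −1.69, −1.80 and −1.93 in untreated ones, and −0.08 to 0.09 in the young, so that its mature auxin arrays lay just above the young ones.

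Other large responses ended well above the young level. AT1G72540 had 2.02, 1.80 and 2.29 in mature hypocotyls with auxin, against 0.00, −0.34 and −0.35 in untreated ones (2.27 ± 0.15). Its young arrays reached at most 0.53, and in untreated hypocotyls the ages overlapped. AT5G58840 had 2.11, 1.77 and 1.36 in mature hypocotyls with auxin, against −0.42, −0.47 and −0.22 in untreated ones (2.12 ± 0.15), and −0.28 to 0.47 in the young. AT2G26380 had 1.93, 2.13 and 2.45 in mature hypocotyls with auxin, against 0.13, 0.12 and 0.03 in untreated ones (2.08 ± 0.11), and −0.58 to −0.03 in the young.

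Further loci of this size lay on both sides of the young level. AT3G02640 had 0.96, 0.75 and 1.31 in mature hypocotyls with auxin, against −1.05, −1.01 and −1.32 in untreated ones (2.13 ± 0.14), and −0.13 to 0.20 in the young. AT3G15680 had 1.15, 0.92 and 1.14 in mature hypocotyls with auxin, against −1.02, −1.07 and −0.83 in untreated ones (2.05 ± 0.10), and −0.14 to 0.14 in the young. AT3G52110 had 1.52, 1.18 and 1.92 in mature hypocotyls with auxin, against −0.44, −0.56 and −0.67 in untreated ones (2.10 ± 0.16), and −0.19 to 0.37 in the young. No mature array of these loci overlapped a young one.

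**Figure D3:**
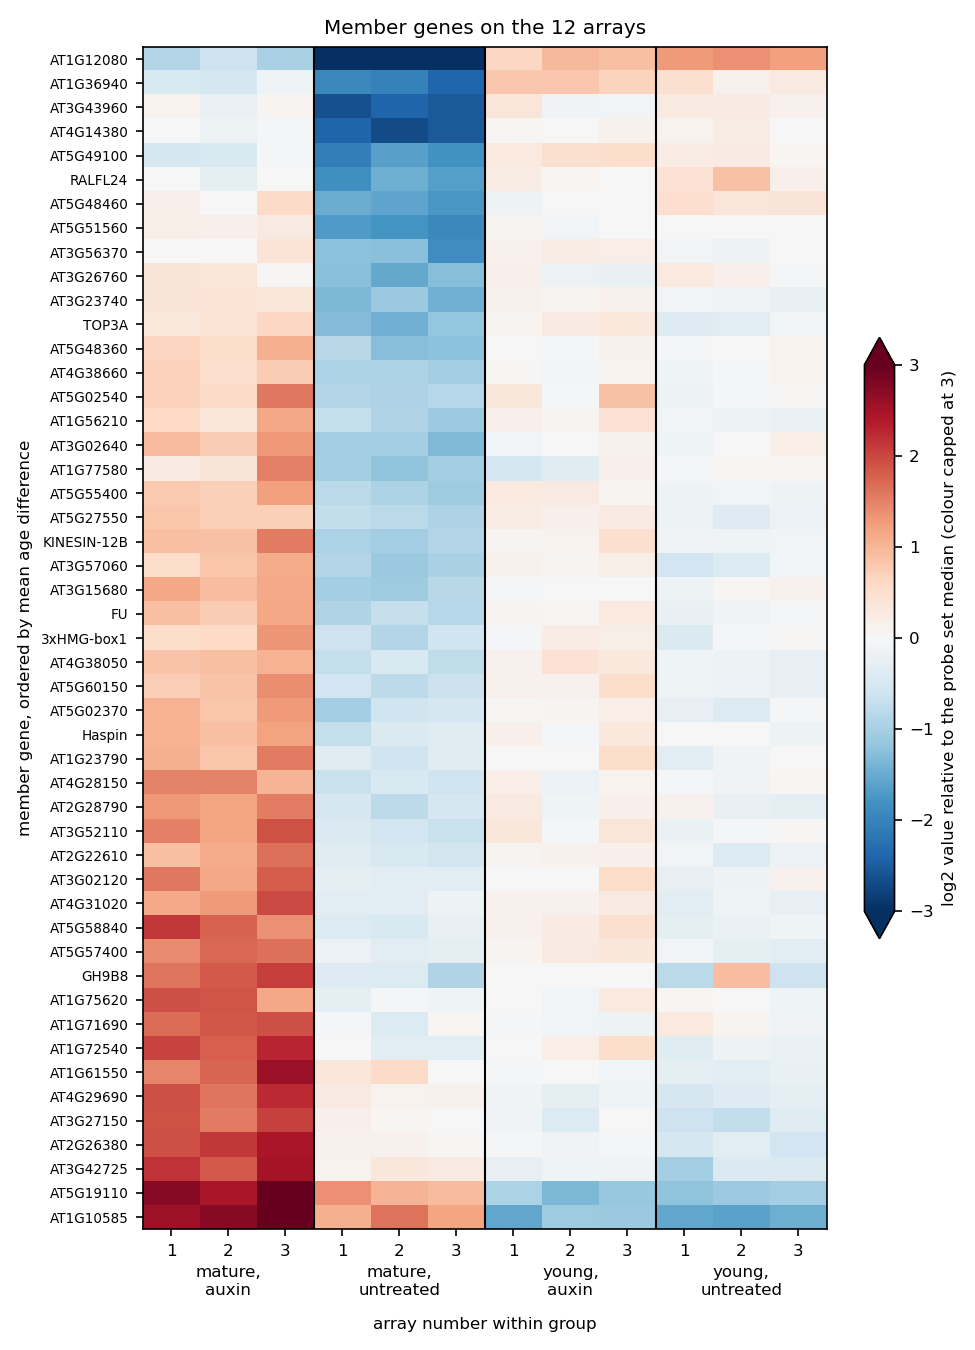
Colour gives the log2 value relative to the probe set median for the 49 members (rows, lowest mean age difference at the top) on the 12 arrays (columns, in 4 groups of 3). The blue block of untreated mature hypocotyls fades from top to bottom while the red block of mature hypocotyls with auxin deepens, and its array 3 holds the highest value of that block in 37 rows.

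The remaining question was where the members stood with age. The members were chosen on the 2 auxin responses, which fix how much the age difference moves with auxin but not around which level. The age difference averaged over treated and untreated arrays would be uncorrelated with both responses in this balanced design if the groups had equal spread. The members' spread was wider in mature hypocotyls with auxin (median SD 0.26) than in untreated ones (0.13), so that the average is in part tied to the mature response that chose them, in the direction of higher values. It was tested with limma on all 22746 probe sets. By this measure 20 of the 49 members (40.8%) were higher in mature hypocotyls, against 21.8% of all probe sets, 12 (24.5%) were lower, against 21.2%, and 17 did not pass. The median was 0.08 (all probe sets −0.01), and the members ranged from −3.92 to 3.55. The share called higher by the average is therefore not independent of the choice of members. Of the 20, 7 had every mature array above every young one in both states, 8 overlapped without auxin and 5 were lower without it. Without auxin alone, 32 of the 49 were called lower (22.9% of all probe sets) and 7 higher (22.7%). With auxin alone, 3 were called lower (13%) and 37 higher (14.2%). The rule bears on both of these contrasts, so they are given as a description. For the average, 18 were called higher and 15 lower without the third mature auxin array, against 21.3% and 20.5% of all probe sets. Without the 4 arrays of low bioC signal, 16 were called higher and 12 lower, against 14.5% and 14.9% of all probe sets; each untreated group is then 1 array, assumed to vary like the auxin groups.

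The strongest age difference upward was that of AT1G10585. It had 2.55, 2.74 and 3.74 in mature hypocotyls with auxin and 1.07, 1.63 and 1.19 in untreated ones, against −1.56, −1.07 and −1.11 in young hypocotyls with auxin and −1.55, −1.60 and −1.47 in untreated ones. Averaged over treatments it was 11.7-fold higher in mature hypocotyls (3.55 ± 0.18, limma adjusted p = 1.7e-09). AT5G19110 had 2.73, 2.44 and 3.02 with auxin and 1.37, 1.02 and 0.96 without it in mature hypocotyls, against −0.96, −1.34 and −1.13 with auxin and −1.20, −1.09 and −1.01 without it in young ones (3.05 ± 0.11, limma adjusted p = 5.7e-11). In these loci auxin added to a level that was already higher with age.

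Next came AT3G42725 (1.60 ± 0.12), AT2G26380 (1.40 ± 0.08), AT3G27150 (1.33 ± 0.10) and AT4G29690 (1.33 ± 0.09), all called higher by limma (adjusted p at most 9.9e-08). AT3G42725 had 2.18, 1.83 and 2.50 with auxin and 0.10, 0.33 and 0.28 without it in mature hypocotyls, against −0.25, −0.13 and −0.10 with auxin and −1.02, −0.44 and −0.43 without it in young ones. With AT1G61550 (1.28 ± 0.16), these are the 7 members in which every mature array lay above every young array both with and without auxin (10.6% of all probe sets). Such groups by overlap, here and below, use the same arrays as the average. The calls within a group are therefore no separate evidence.

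Another 8 members, all called higher, had overlapping ages without auxin and no overlap with it (7.22% of all probe sets): GH9B8, AT1G72540, AT5G58840, AT1G71690, AT5G57400, AT1G75620, AT4G31020 and AT2G22610. Their median age difference was 1.53 with auxin and −0.14 without. AT1G71690 showed the largest difference with auxin of these 8, 1.92 ± 0.13, and −0.23 ± 0.13 without. The call of GH9B8 (0.71 ± 0.24, limma adjusted p = 0.024) was lost in 7 of 20 alternatives, 5 of which left out 1 array, with adjusted p between 1e-05 and 0.091 over the 20. The call of Haspin (0.24 ± 0.09, limma adjusted p = 0.039) was lost in 9 of 20, with adjusted p between 0.0071 and 0.11. AT3G52110 (0.41 ± 0.11, limma adjusted p = 0.0095) lost its call without the 4 arrays of low bioC signal (0.30, adjusted p = 0.28).

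The lower end was led by AT1G12080, 3.92 ± 0.13 below young hypocotyls on the log2 scale when averaged over treatments (limma adjusted p = 3.1e-11). AT1G36940 had −0.46, −0.52 and −0.14 with auxin and −1.94, −2.03 and −2.39 without it in mature hypocotyls, against 0.81, 0.82 and 0.67 with auxin and 0.48, 0.14 and 0.27 without it in young ones (−1.78 ± 0.09, limma adjusted p = 3e-09). AT5G49100 had −0.50, −0.45 and −0.05 with auxin and −2.08, −1.62 and −1.82 without it in mature hypocotyls, against 0.29, 0.48 and 0.53 with auxin and 0.22, 0.25 and 0.05 without it in young ones (−1.39 ± 0.10, limma adjusted p = 4.2e-08). With AT4G14380 (−1.39 ± 0.06), these are the 4 members that stayed below the young level on every array in both states (8.98% of all probe sets).

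In 6 members untreated mature hypocotyls lay below young ones and the ages overlapped with auxin (14.3% of all probe sets). They were AT3G43960 (−1.40 ± 0.09 averaged over treatments), RALFL24 (−1.16 ± 0.11), AT3G56370 (−0.71 ± 0.11) and AT3G26760 (−0.58 ± 0.09), all called lower, and AT5G02540 and AT1G56210, which were not. Their median age difference was 0.15 with auxin, against −1.44 without. For RALFL24 the age difference was −0.18 ± 0.16 with auxin and −2.14 ± 0.16 without.

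The other 24 members reversed their order. Every mature array lay below every young array without auxin and above every young array with it, against 4.45% of all probe sets; since the rule requires the age difference to move upward with auxin, nothing is read from that contrast. Their median age difference was 0.77 with auxin and −0.67 without. This group holds all 5 members named for cell division and DNA repair: KINESIN-12B (0.89 ± 0.16 with auxin, −0.85 ± 0.16 without), FU (0.81 ± 0.11 and −0.70 ± 0.11), Haspin (0.92 ± 0.12 and −0.45 ± 0.12), 3xHMG-box1 (0.71 ± 0.18 and −0.55 ± 0.18) and TOP3A (0.23 ± 0.11 and −1.03 ± 0.11). TOP3A was called lower when averaged over treatments (−0.40 ± 0.08, limma adjusted p = 0.00098), and so were AT5G51560, AT5G48460 and AT3G23740. Called higher were Haspin, AT3G52110, AT2G28790, AT4G28150 and AT3G02120.

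In the 15 other reversing members, and in AT5G02540 and AT1G56210, the averaged age difference did not pass, and lay between −0.20 and 0.33. For KINESIN-12B it was 0.02 ± 0.11, for FU 0.05 ± 0.08 (0.22 ± 0.08 by its second probe set, limma adjusted p = 0.039), for 3xHMG-box1 0.08 ± 0.13, for AT3G15680 0.05 ± 0.07 and for AT3G02640 −0.08 ± 0.10. The remainder were AT5G48360, AT5G55400, AT3G57060, AT1G77580, AT5G02370, AT5G60150, AT4G38660, AT1G23790, AT4G38050 and AT5G27550.

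**Figure D4:**
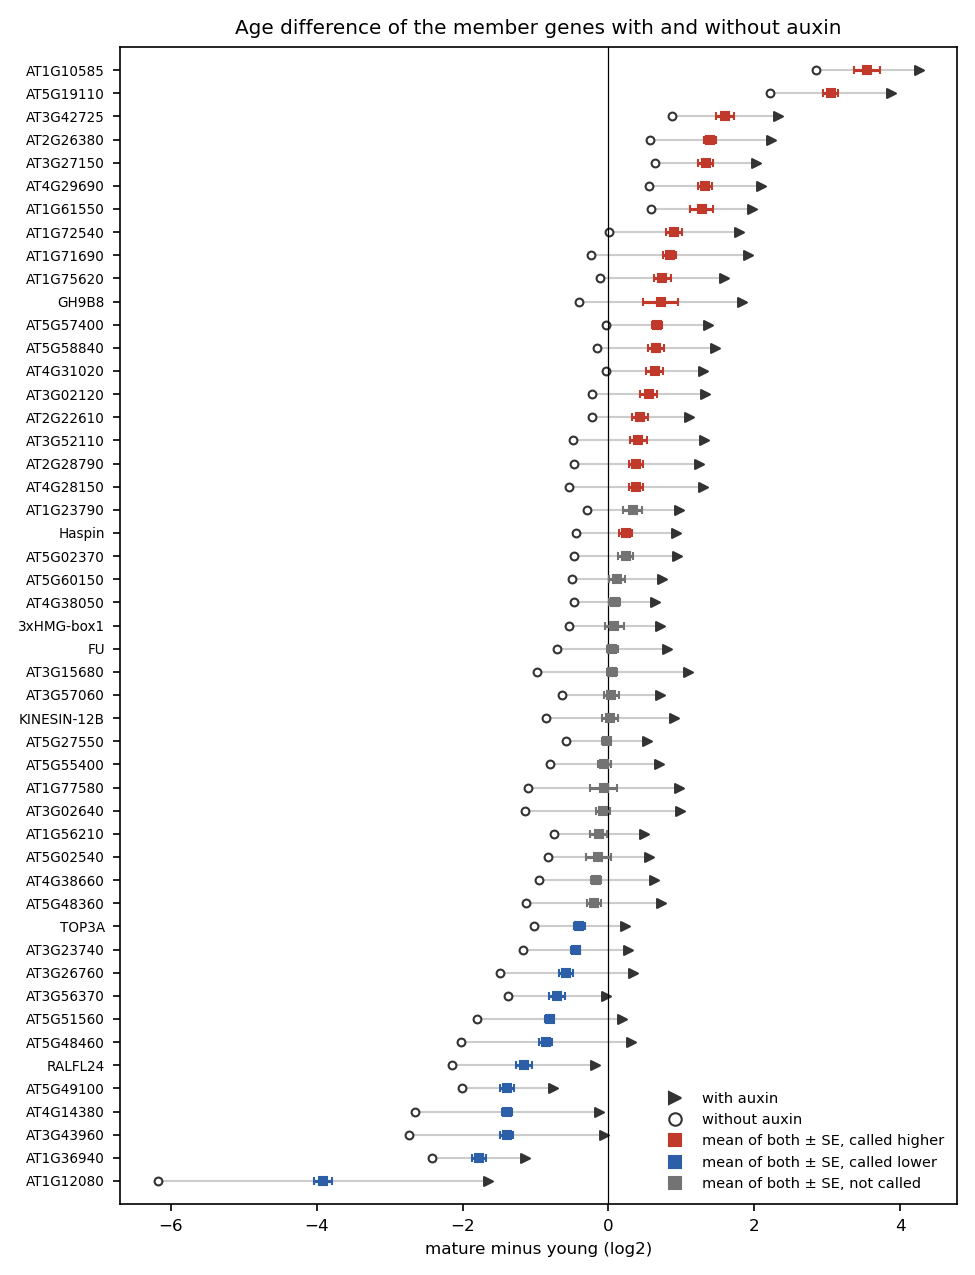
For each member the x axis gives mature minus young on the log2 scale, with auxin (triangles), without auxin (circles) and as the mean of both with its SE (squares; red called higher, blue called lower, grey not called). The 20 members called higher fill the upper rows except for AT1G23790, the 12 called lower the bottom rows, and in 24 members the circle lies left of 0 and the triangle right of it with no overlap of arrays.

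The wider lists to which named members belong give the setting of these values. Of 12 measured genes of DNA replication and repair, TOP3A among them, 10 rose and 1 fell with auxin in mature hypocotyls (31.8% and 28.1% of all probe sets), with a median of 1.44, and 9 rose and 2 fell in young ones (32.7% and 26.4%), with a median of 0.71. Of 39 genes on the mitosis and cytokinesis list, 19 rose and 11 fell in mature and 15 rose and 14 fell in young hypocotyls, with medians of 0.21 and 0.16. Most of that list carry IQD or TRM symbols, caught by their names and not all of them division genes. Leaving these and AT1G55460 out after their values were seen, 9 of 11 genes rose and 2 fell in mature hypocotyls (median 1.80), and 6 rose and 2 fell in young ones (median 0.32). KINESIN-12B and 3xHMG-box1 are 2 of the 11. The rule fixed the large mature and small young responses of both, as it did for TOP3A above. The young median of 0.32 is the value of KINESIN-12B itself, so nothing is read from the gap between the 2 medians. Beside 3xHMG-box1, its relative 3xHMG-box2 had a mature response of 2.40 ± 0.13 but a young one of 0.89 ± 0.13, which kept it out of the members. BUBR1, of the spindle checkpoint, had 1.91 ± 0.11 and 0.94 ± 0.11, and HTR12, the centromeric histone H3, 2.40 ± 0.15 and 1.01 ± 0.15. WYR, the inner centromere protein, with 1.42 ± 0.18 and 0.30 ± 0.18, missed the mature limit instead. The 2 of the 11 that fell were ATMAP65-6 (−1.91 ± 0.10 in mature and −1.11 ± 0.10 in young hypocotyls) and KEU (−0.54 ± 0.07 and −0.32 ± 0.07).

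The other named members belong to the lists of wall and signalling genes. Over all probe sets, 31.8% rose and 28.1% fell in mature hypocotyls, and 32.7% rose and 26.4% fell in young ones. Of 98 measured cell wall genes, including GH9B8, 48 rose and 18 fell in mature hypocotyls (median 0.24), and 42 rose and 16 fell in young ones (median 0.17). Of 30 genes of receptor kinases and signalling peptides, including RALFL24, 7 rose and 9 fell in mature (median 0.04) and 8 rose and 10 fell in young hypocotyls (median −0.01). Of the genes set aside by symbol, AUR2 and AUR3 had the order of the division members and EXPA15 did not. All of them met the limits of the rule, which set that order in part. AUR2 and AUR3 are Aurora kinases, which act in mitosis. AUR2 had 0.80, 0.77 and 1.01 in mature hypocotyls with auxin, against −1.65, −1.36 and −1.49 in untreated ones, and −0.38 to 0.22 in the young. AUR3 had 1.06, 0.63 and 0.95 in mature hypocotyls with auxin, against −1.09, −1.34 and −1.06 in untreated ones, and −0.32 to 0.33 in the young. EXPA15, an expansin, had 1.58, 1.60 and 1.39 in mature hypocotyls with auxin, against −0.16, −0.26 and −0.31 in untreated ones, which overlapped the young range of −0.37 to 0.13.

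The members were spread over the 5 chromosomes, with 12, 4, 13, 7 and 13 on chromosomes 1 to 5. On chromosome 2 this is 8.16% of the members, against 16.4% of the probe sets with 1 gene, and on chromosome 3 26.5% against 20.4%; these shares were not tested. No 2 members were adjacent in the order of protein-coding genes. The closest were AT3G23740 and RALFL24, with 6 genes between them, then KINESIN-12B and AT3G23740, with 8. Averaged over treatments, KINESIN-12B was not called with age, while AT3G23740 and RALFL24 were lower in mature hypocotyls.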

How the data were processed

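Per the submitters' processing notes, the authors used RMA, a method that combines background correction, normalization across arrays and a summary per probe set. Its version is not given in the sources used here. The deposited values are on a log scale, read as log2, the scale RMA gives. Every row of the deposited table has a median of 0, so each probe set was centred over the 12 arrays, and dim probe sets could not be filtered out. A model of the 4 groups was fitted to 22746 non-control probe sets with limma 3.58.1 in R 4.3.3, two-sided, with Benjamini-Hochberg adjustment over all of them and calls at an adjusted p under 0.05. The fit was tested on simulated data for the age average. It recovered 79% of genes changed by 0.5 and 96% of those changed by 1, and 6.42% of its calls were false. Only 100 genes of each size were changed among 22746, whereas 43% of probe sets were called for the age average here. These rates therefore need not hold for the real data. Members, lists and markers were chosen with earlier results of these data known. Named with values are the 12 largest mature responses, the 6 highest and the 6 lowest called age averages, up to 3 members per list and members at the limits. Added after their values were seen were every member with a gene name, AT5G48460, AT1G61550, AT1G71690, AT3G56370 and AT3G26760. So were the genes set aside by symbol and the division genes outside the members. Symbols and gene order come from the array's annotation and RefSeq (TAIR10.1). Alternatives were other scalings, array weights, a robust and an unmoderated fit, gene means, a replicate block and left-out arrays. Same-numbered arrays of the 2 auxin groups deviated together (correlations 0.25, 0.16 and 0.12), and in no other of the 6 pairs of groups did all 3 exceed 0.1. No sequence is printed; promoters were not analysed here.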

Additional observations from a re-analysis of the deposited data

Results flagged for a closer look

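In 24 members every mature array lay below every young array without auxin and above every young array with it, so that the age difference had opposite directions in the 2 states; this difference was not tested, because the rule that chose the members sets it in part.

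A further 48 probe sets with several genes or none listed met both limits of the rule, 4 with several and 44 with none, against 52 with 1 gene. They are counted here and not named.

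The 25S ribosomal RNA control, which no comparison above uses, was higher by 3.12 on the log2 scale in mature hypocotyls with auxin, at 1.20, 1.06 and 1.35, against −2.46, −2.22 and −1.06 in untreated ones. In young hypocotyls it lay at 1.77, 2.49 and 2.50 with auxin, against −2.19, −2.56 and −1.06 without. Array 3 of both untreated groups thus stood apart from arrays 1 and 2, as it did for the bioC spike-in. The relation of the 25S control to the members was not tested.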

How the results depend on the processing

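The rule chose 78 genes after quantile normalization, 46 of them among the 49, 12 with a mature limit of 2, 129 with a limit of 1 and 17 with a young limit of 0.25; leaving out 1 array gave 42 to 56. For the averaged age difference, leaving out 1 array gave 18 to 22 members called higher and 12 to 15 lower. Of all probe sets, 20.2% to 21.5% were then called higher and 19.7% to 20.7% lower. With the replicate block, 22 members were called higher and 13 lower, against 22.5% and 21.7% of all probe sets. These include all 20 and all 12 of those reported, and the block changed no call of a gene named with values. The labels do not say that the numbers pair the arrays. In the auxin groups the numbers go with the correlation, and in both untreated groups array 3 stood apart in the bioC spike-in. For the 29 members named with values, 563 of 580 recomputed age averages kept their side of the threshold and 17 lost the call, and no called value changed direction; the lost calls concern Haspin (9), GH9B8 (7) and AT3G52110 (1), and the cause was not tested. The count of 24 reversing members was 23 to 28 under alternatives added after seeing the data. The precision is limited by 3 arrays per group, and, without absolute signals, by an unknown distance from background.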
